A study of Mus musculus with 4 samples.

Results

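The genes described here are the ligands and receptors of the tumor necrosis factor (TNF) superfamily, read from gene counts of splenic CD4+ T cells. They were taken by name, as every gene symbol that starts with Tnfsf or Tnfrsf and a digit, together with *Cd27*, *Cd40*, *Cd40lg*, *Cd70*, *Fas*, *Fasl*, *Tnf*, *Lta*, *Ltb* and *Ltbr*. This gave 42 of the 55367 gene symbols in the count tables. They comprise 24 receptors, 17 ligands and *Tnfsf13os*, an RNA transcribed antisense to *Tnfsf13*. RNA was sequenced from peripheral CD4+ T cells of the spleen of C57BL/6 mice in 4 libraries, 2 with the genotype label WT and 2 labelled as *Satb1* conditional knockout (cKO). SATB1 is a nuclear protein that organizes chromatin in T cells, and the study asked which transcripts depend on it once T cells have committed to the CD4 lineage. The conditional allele is *Satb1* F/F, and the study used Thpok-cre (named ThPOK-cre in the design text), which is active in the whole CD4+ T-cell compartment from lineage commitment onward, to delete it from CD4+ T cells. The genotype of the WT mice beyond that label, their Cre status included, is not given in the sources used here, nor is the age or sex of the mouse behind each library. For its mice as a whole the study gives young adult animals of mixed sexes.

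TNF superfamily ligands are mostly trimeric proteins on the cell surface or shed from it, and each gathers several copies of its receptor on the cell it meets. Costimulatory receptors of T cells pass the signal through TRAF adaptors to NF-kappaB, which favors survival and proliferation, whereas death-domain receptors such as FAS and TNFR1 can start cell death. In the CD4+ compartment, CD40 ligand is the molecule by which helper T cells license B cells and dendritic cells, and OX40, GITR and TNFR2 are known to be high on regulatory T (Treg) cells and on activated T cells.

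The libraries held 6555699 (WT 1), 4495902 (WT 2), 5372419 (cKO 1) and 4628467 (cKO 2) gene counts. Of these, 6529234, 4476529, 5348729 and 4608067 fell in the genes kept for testing. CPM are counts per 1e+06 of these kept counts, after TMM scaling. On that scale 3 counts, taken here as the floor, stood for 0.459 to 0.672 CPM. Some facts of the libraries bear on what follows. *Satb1* itself had 5677 and 4390 counts under the WT label and 4958 and 3986 under the cKO label, so its gene-level count, which also takes in any exon kept after deletion, did not separate the labels and all directions rest on the labels. For the X-linked RNA *Xist* WT 1 and WT 2 had 5447 and 4235 counts while cKO 1 and cKO 2 had 9 and 6, and Y-linked *Ddx3y* had 0 and 0 against 525 and 597, so genotype and a sex-linked difference cannot be told apart for any gene here. The 7 T-cell genes (*Cd3d*, *Cd3e*, *Cd3g*, *Cd4*, *Cd5*, *Lck*, *Trbc2*) summed to 4994 to 5448 CPM in every library with 0 of 7 called, which fits the cell type label.

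Promoter sequences are shown first for the receptor genes *Tnfrsf4* and *Tnfrsf18*, which lie 9551 bases apart and were both called, and for the ligand gene *Tnfsf14*, the member ranked next by p-value. They come from the 250 bases before the RefSeq transcription start on GRCm38.p6 and are written from 5′ to 3′ on the strand of the gene. Capitals mark matches on either strand to TGANTCA, the form bound by AP-1, and to a loose kappaB form, GGG and CC with any 5 bases between them. For *Tnfrsf18* only the first 92 of these bases are printed, since the rest, up to the RefSeq start, fall in exons of the gene. The windows are chr4:156013445-156013694 on the plus strand, chr4:156026072-156026163 on the plus strand and chr17:57194182-57194431 on the minus strand.
Tnfrsf4: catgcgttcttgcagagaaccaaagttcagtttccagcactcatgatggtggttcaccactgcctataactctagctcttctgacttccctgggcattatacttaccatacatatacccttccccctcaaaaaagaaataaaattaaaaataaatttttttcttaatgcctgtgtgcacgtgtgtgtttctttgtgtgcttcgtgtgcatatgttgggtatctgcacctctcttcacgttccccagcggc
Tnfrsf18: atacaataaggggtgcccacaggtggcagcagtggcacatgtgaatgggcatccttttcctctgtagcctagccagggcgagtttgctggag
Tnfsf14: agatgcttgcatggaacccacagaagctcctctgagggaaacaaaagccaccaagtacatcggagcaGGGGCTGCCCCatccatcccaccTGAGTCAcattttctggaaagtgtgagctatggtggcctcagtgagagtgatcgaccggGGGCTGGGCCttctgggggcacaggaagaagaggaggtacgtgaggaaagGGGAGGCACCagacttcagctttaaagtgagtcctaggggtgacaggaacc
Neither form occurs in the 250 bases before the start of *Tnfrsf4* or of *Tnfrsf18*. The *Tnfsf14* window holds 1 match to the AP-1 form and 4 to the kappaB form, 2 of which overlap each other. Over all 32851 RefSeq windows of the same length, 6.75% held the AP-1 form and 45.8% the kappaB form, and over the 35 windows of TNF superfamily genes 17.1% and 62.9% did. A match describes the letters of a window and is not a measured binding site. No window was found for *Cd40lg*.

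Of the 42 genes, 27 passed the low-count filter and were tested. None of them passed through 1 genotype only, and 24 were above the filter's cutoff of about 2 CPM in every library, the exceptions being *Tnfrsf12a*, *Tnfrsf13c* and *Tnfrsf23*. The other 15 were *Cd40*, *Cd70*, *Ltbr*, *Tnfrsf11a*, *Tnfrsf11b*, *Tnfrsf17*, *Tnfrsf19*, *Tnfrsf21*, *Tnfsf4*, *Tnfsf12*, *Tnfsf13*, *Tnfsf13b*, *Tnfsf13os*, *Tnfsf15* and *Tnfsf18*. Their highest count in any library was 10, for *Tnfrsf21*, which encodes death receptor 6. Of these 15, 10 had at most 3 counts in each library, and *Tnfrsf11b* (osteoprotegerin) and *Tnfrsf17* (BCMA, a plasma cell receptor) had 0 in all 4. These 15 genes did not pass the filter, and their counts are given without a test.

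Per kilobase of exon, the scale on which genes can be compared, *Ltb* stood highest at a mean of 413 CPM per kb and *Cd27* next at 170 CPM per kb, and the libraries of neither overlapped those of the gene ranked below it. *Ltb* encodes lymphotoxin beta, the membrane anchor of the lymphotoxin heterotrimer, and *Cd27* a costimulatory receptor of resting T cells. *Cd40lg* followed at 83.4 CPM per kb and *Tnfrsf18* at 51.7 CPM per kb. Within each library *Cd40lg* stood above *Tnfrsf18*, at 68.6 and 65.1 against 38.6 and 43.1 CPM per kb in WT and 105.6 and 94.2 against 65.8 and 59.4 in cKO, and the ranges of these genes overlap only across genotypes. Then *Tnfrsf14*, *Tnfrsf4*, *Tnfrsf25* and *Tnfrsf1b* lay between 30.1 and 34.4 CPM per kb as means over the 4 libraries. Their order differed between genotypes, since *Tnfrsf14* at 36.8 and 39.0 stood above *Tnfrsf4* at 27.6 and 21.8 CPM per kb in WT, and *Tnfrsf4* at 40.2 and 43.8 stood above *Tnfrsf14* at 33.0 and 28.7 in cKO. The gap below *Tnfrsf1b* was clear of overlap, with *Tnfrsf1a* next at 20.6 CPM per kb. From *Tnfrsf1a* to *Tnfrsf23*, the lowest of those tested at 0.624 CPM per kb, each gene overlapped the next over the range of the 4 libraries. The costimulatory receptors thus took 6 of the first 8 places on this scale.

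**Figure D1:**
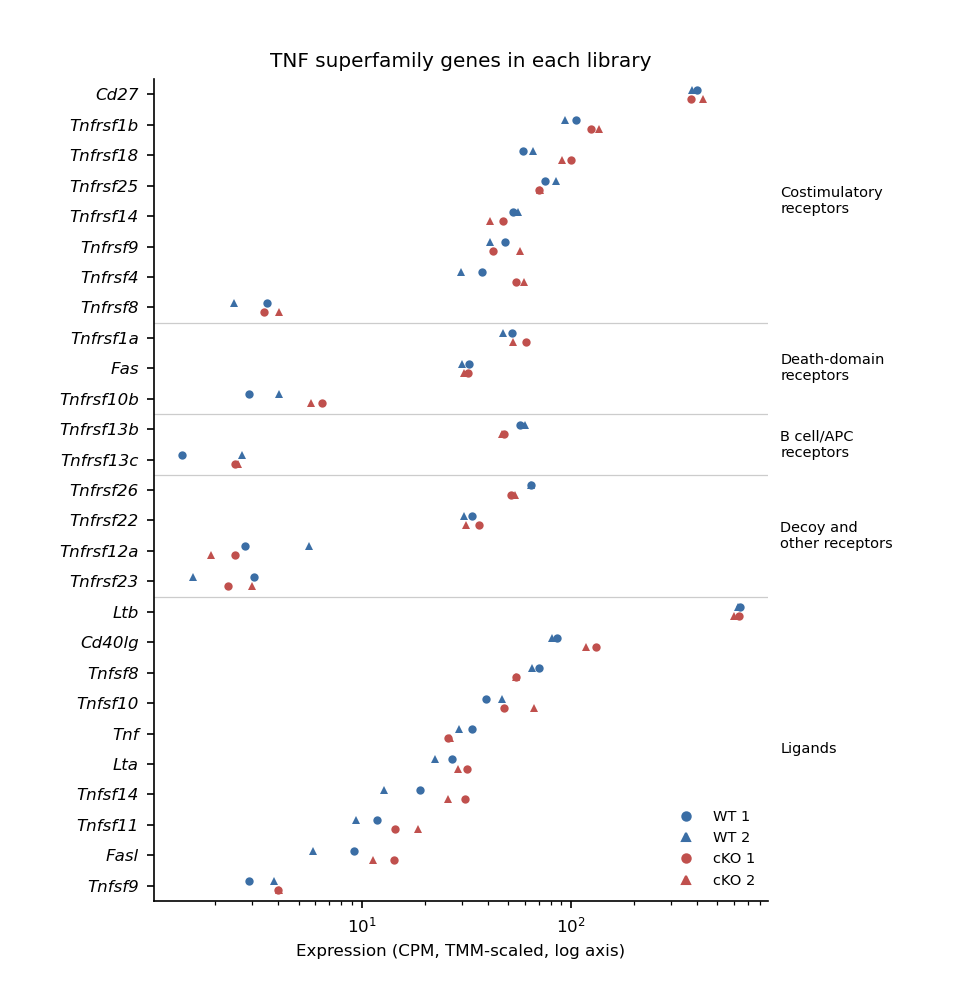
Expression of the 27 tested TNF superfamily genes in each library, in CPM on TMM-scaled library sizes on a log axis, grouped by role. Circles are replicate 1 and triangles replicate 2, WT in blue and cKO in red. *Ltb* and *Cd27* lie far above the rest with mixed genotypes, and the cKO symbols of *Tnfrsf18*, *Tnfrsf4* and *Cd40lg* lie to the right of the WT symbols.

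Between genotypes, transcripts of 3 of the 27 tested genes were higher in the libraries labelled cKO by the edgeR quasi-likelihood test, with an adjusted p below 0.05, namely *Tnfrsf4*, *Tnfrsf18* and *Cd40lg*, each by about 1.5 to 1.7 times. The background of such calls over all 12403 genes tested is 2.35% higher and 1.95% lower. No gene of the family was called lower by edgeR, and DESeq2 also called 0 lower and the same 3 higher. At an unadjusted p under 0.05 the family had 9 genes higher and 4 lower, against a background of 9.72% higher and 9.39% lower. Both cKO libraries lay above both WT libraries for 12 of the 27 genes and below them for 7, where 24.8% of all tested genes lay above and 25.4% below. The median log2 fold change over the 27 was 0.19, with 19 values above 0 and 8 below. Over all genes tested the median was -0.0015, with 49.8% above 0. The counts over the family were not tested against those over all genes. The labels do not say that the replicates are separate mice, so the p-values measure the spread between these libraries, and for a single gene an exact permutation test of 2 against 2 libraries cannot go below 0.333. In RNA from a mixed sample, a change in the share of cells that carry a transcript and a change in the transcript per cell cannot be told apart.

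Among the 8 costimulatory receptors, all of which were tested, *Tnfrsf4* and *Tnfrsf18* were called higher and 6 were not called. The median log2 fold change of the list was 0.22. *Tnfrsf4* encodes OX40, a receptor that prolongs T-cell survival after activation, and lies on chromosome 4 from 156013843 to 156016612 on the plus strand of GRCm38. Its level was 37.6 and 29.8 CPM in WT 1 and WT 2, and 54.9 and 59.7 CPM in cKO 1 and cKO 2. Both cKO libraries lay above both WT libraries, and the gap between genotypes was wider than the spread within either. The log2 fold change was 0.75 ± 0.15 (SE), which is 1.69-fold with a 95% interval of 1.34 to 2.13 and an edgeR adjusted p = 0.0264. The call was lost when WT 2 was left out, with a log2 fold change of 0.60 and an adjusted p = 0.273, and held when each of the other libraries was left out.

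*Tnfrsf18* encodes GITR, which is constitutively high on Treg cells, and lies from 156026164 to 156028895 on the same strand of chromosome 4. WT 1 and WT 2 stood at 58.9 and 65.6 CPM, and cKO 1 and cKO 2 at 100.2 and 90.6 CPM. The genotypes did not overlap here either. The log2 fold change was 0.62 ± 0.12 (SE), 1.54-fold with a 95% interval of 1.28 to 1.85 and an adjusted p = 0.0232. Without WT 1 the log2 fold change was 0.55 with an adjusted p = 0.165, and without WT 2 it was 0.69 with an adjusted p = 0.142, so the call was lost while the fold stayed of like size. A gene on the opposite strand, *Gm16008*, covers 414 of the 1524 exonic bases of *Tnfrsf18*. It had 243, 151, 332 and 287 counts in the order WT 1, WT 2, cKO 1 and cKO 2. *Gm16008* was itself called higher, with a log2 fold change of 0.80 and an adjusted p = 0.0103. With single libraries left out, its log2 fold change ran from 0.74 without WT 2 to 0.88 without WT 1. The strand setting of the counting is not given in the sources used here, so reads of *Tnfrsf18* and *Gm16008* may not be separable where they overlap.

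Of the 8 tested genes within 100 kb of *Tnfrsf18*, *Tnfrsf4* and *Gm16008* were called and the other 6 were not, among them *Sdf4*, which lies 232 bases from *Tnfrsf4* and had a log2 fold change of 0.17 (adjusted p = 0.415). *Gm37090*, which lies between both receptor genes, was not called either (log2 fold change -0.18, adjusted p = 0.874).

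The other costimulatory receptors were not called. *Tnfrsf1b*, which encodes TNFR2, the TNF receptor through which Treg cells expand, was the nearest to a call at 105.7 and 93.2 CPM in WT and 124.6 and 136.5 CPM in cKO. The genotypes did not overlap, with a log2 fold change of 0.39 ± 0.11 (SE) and an adjusted p = 0.0968, and the gene was called without cKO 1 (adjusted p = 0.0130), without cKO 2 (adjusted p = 0.0467) and with the replicate number as a block (adjusted p = 0.0355), and had an adjusted p = 0.648 without WT 2. *Tnfrsf9*, which encodes CD137, a receptor induced by T-cell activation, had 48.5 and 41.0 CPM in WT and 42.3 and 57.4 in cKO. Here the genotypes overlapped, and the log2 fold change was 0.15 with a 95% interval from -0.24 to 0.53 (adjusted p = 0.703). *Cd27* stood at 400.9 and 378.9 CPM in WT and 376.7 and 427.2 in cKO, with a log2 fold change of 0.04 and an interval of the fold from 0.872 to 1.22. This most abundant receptor of the family was not separated by genotype, and its direction turned when WT 2 or cKO 2 was left out.

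In 2 costimulatory receptors both cKO libraries lay below both WT libraries. *Tnfrsf14* encodes HVEM, a receptor that binds LIGHT as well as the inhibitory molecule BTLA, and had 52.9 and 56.0 CPM in WT and 47.4 and 41.2 in cKO (log2 fold change -0.29, adjusted p = 0.261). *Tnfrsf25*, which encodes death receptor 3, the receptor of TL1A, had 75.6 and 84.5 CPM in WT and 70.1 and 70.8 in cKO (log2 fold change -0.18, adjusted p = 0.438). *Tnfrsf8*, which encodes CD30, was near the filter at 3.52 and 2.47 CPM in WT and 3.43 and 4.04 in cKO, where a fold between 0.670 and 2.21 could not be told from no change. Over the class, both cKO libraries lay above both WT libraries for 3 genes, below them for 2 and overlapped for 3, beside the 24.8% above and 25.4% below over all genes.

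**Figure D2:**
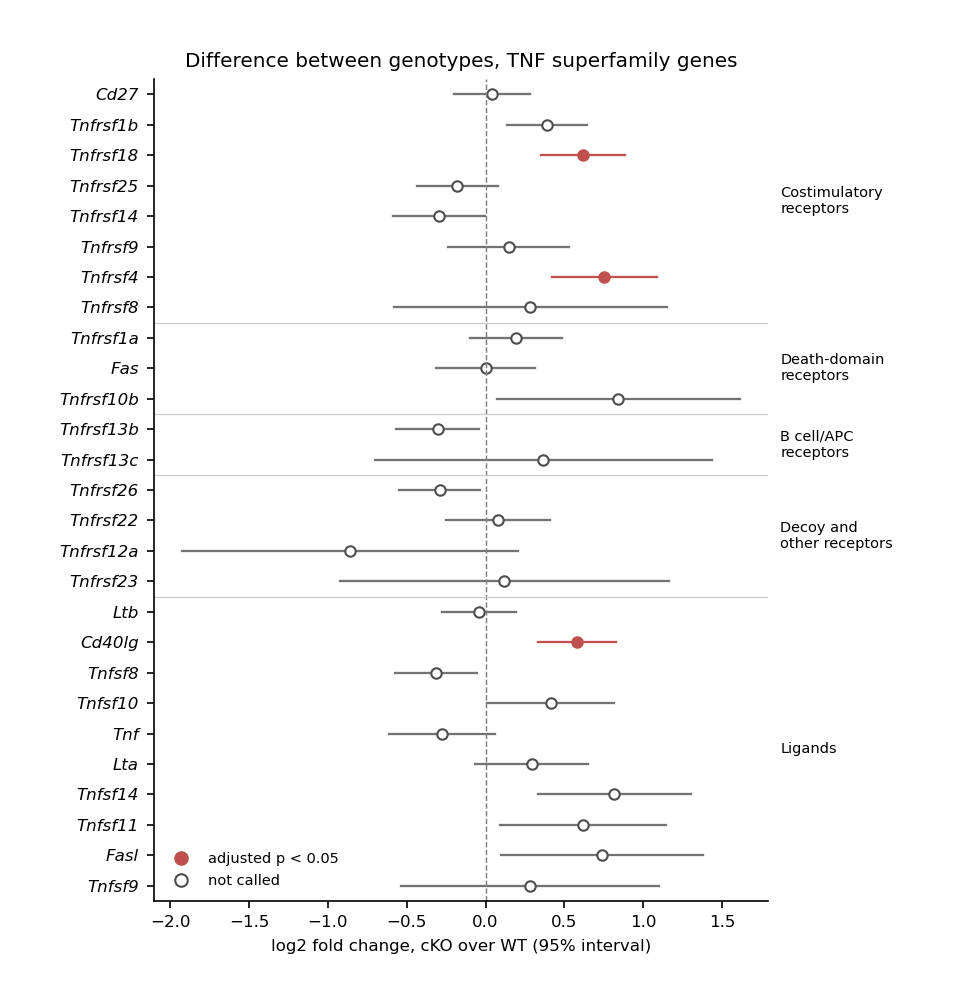
The log2 fold change of cKO over WT for the 27 tested genes with its 95% interval, by role, filled red where the adjusted p was under 0.05. *Tnfrsf18*, *Tnfrsf4* and *Cd40lg* are the filled points, at 0.62, 0.75 and 0.58, and the intervals of low genes such as *Tnfrsf12a* and *Tnfrsf13c* span most of the axis.

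Of the 17 ligands 10 were tested, *Cd40lg* was called higher and the median log2 fold change was 0.35. *Cd40lg* lies on chromosome X from 57212143 to 57224042 on the plus strand. Its transcript stood at 85.8 and 81.3 CPM in WT 1 and WT 2, and at 132.1 and 117.8 CPM in cKO 1 and cKO 2. The genotypes were well apart, with a log2 fold change of 0.58 ± 0.11 (SE), 1.49-fold with a 95% interval of 1.26 to 1.78 and an adjusted p = 0.0232. The log2 fold change was 0.63 without WT 1 and 0.54 without WT 2, with adjusted p = 0.0569 and 0.261, so the call was lost there. Because the gene is X-linked, the sex-linked split of the libraries stands beside this value. Of 370 tested genes on X, 10 were called higher, or 2.70%, beside 2.35% of all genes tested. Another 14 of the 370 were called lower, a larger share than the 1.95% over all genes tested. The median log2 fold change of the genes on X was 0.00. The part of sex in the value of *Cd40lg* was not tested. Within 100 kb of *Cd40lg* 2 other genes were tested and neither was called.

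Several ligands had both cKO libraries above both WT libraries without a call. *Tnfsf14*, which encodes LIGHT, a ligand of HVEM and of the lymphotoxin beta receptor, had 19.0 and 12.8 CPM in WT and 31.1 and 25.7 in cKO. Its log2 fold change of 0.82 ± 0.21 (SE) was the largest of the tested ligands, and the adjusted p was 0.0741. It was called without WT 1 (adjusted p = 0.00761), without cKO 2 (adjusted p = 0.000742), with the replicate number as a block (adjusted p = 0.00576), in the likelihood ratio test (adjusted p = 0.00901) and with no filter (adjusted p = 0.000963), and had an adjusted p = 0.421 without WT 2. *Fasl*, the ligand that triggers FAS, had 9.18 and 5.83 CPM in WT and 14.3 and 11.3 in cKO (log2 fold change 0.74, adjusted p = 0.200, which was 0.0290 without cKO 2 and 0.745 without WT 2). *Tnfsf11*, which encodes RANKL, a ligand known from osteoclast and lymph node development, had 11.8 and 9.41 CPM in WT and 14.5 and 18.5 in cKO (log2 fold change 0.62, adjusted p = 0.192, which was 0.0478 without cKO 1 and 0.702 without WT 2). *Tnfsf10* encodes TRAIL, and its values of 39.3 and 47.1 CPM in WT and 47.8 and 66.7 in cKO had cKO 2 highest and cKO 1 close to WT 2 (log2 fold change 0.41, adjusted p = 0.251, which became 0.64 with an adjusted p = 0.00514 without cKO 1 and 0.16 with an adjusted p = 0.554 without cKO 2). *Lta*, which encodes lymphotoxin alpha, had 26.9 and 22.4 CPM in WT and 31.8 and 28.9 in cKO, and *Tnfsf9*, which encodes the ligand of CD137, only 19, 17, 21 and 19 counts in the order WT 1, WT 2, cKO 1 and cKO 2, with adjusted p = 0.363 and 0.734.

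The remaining ligands were lower or level in the cKO libraries. *Tnfsf8*, which encodes the ligand of CD30, had 70.4 and 65.2 CPM in WT and 54.5 and 54.8 in cKO (log2 fold change -0.31, adjusted p = 0.182). *Tnf* itself, the inflammatory cytokine that names the family, had 33.8 and 29.1 CPM in WT and 25.9 and 26.4 in cKO (log2 fold change -0.27, adjusted p = 0.360). *Ltb* had 643.5 and 626.0 CPM in WT and 634.7 and 599.2 in cKO, with a log2 fold change of -0.04 and an interval of the fold from 0.826 to 1.14. *Ltb*, *Tnf* and *Lta* lie next to each other on chromosome 17, with 3.06 kb between the first pair and 1.16 kb between the second, and their log2 fold changes of -0.04, -0.27 and 0.29 did not share a direction.

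Costimulatory receptors and ligands were set side by side as lists. Of the tested genes, 6 of 8 receptors and 7 of 10 ligands had a log2 fold change above 0, with medians of 0.22 and 0.35. Over all genes tested 49.8% had a value above 0. Both cKO libraries lay above both WT libraries for 7 ligands and below them for 2, beside 24.8% and 25.4% of all genes. The median of the receptors ran from 0.06 to 0.39 when single libraries were left out, and that of the ligands from 0.32 to 0.47. The summed level of the receptors was 783.6, 751.5, 819.8 and 887.4 CPM and that of the ligands 944.0, 904.1, 992.2 and 954.0 CPM in the order WT 1, WT 2, cKO 1 and cKO 2. Both sums were slightly higher in the cKO libraries. *Cd27* and *Ltb*, the largest single contributors to the sums, were not called, and the mean of *Ltb* was 634.8 CPM in WT and 617.0 in cKO. The members of a list share libraries and are not replicates, so the difference between the lists was not tested.

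No receptor outside the costimulatory list was called among the 9 tested of 16. Of the death-domain receptors, *Tnfrsf1a* (TNFR1) had 52.0 and 47.5 CPM in WT and 60.8 and 52.9 in cKO, and *Fas* had 32.6 and 30.2 in WT and 32.2 and 30.8 in cKO, with log2 fold changes of 0.19 and 0.00. *Tnfrsf10b*, the TRAIL death receptor, was low at 2.91 and 4.03 CPM in WT and 6.48 and 5.74 in cKO, and its log2 fold change of 0.84 was the highest in the family but did not pass (adjusted p = 0.223, from 19, 18, 34 and 27 counts). *Tnfrsf13b*, which encodes TACI and is best known from B cells, had 57.2 and 60.0 CPM in WT and 47.8 and 47.0 in cKO (log2 fold change -0.30, adjusted p = 0.200). The B-cell markers *Cd79a*, *Cd79b*, *Ms4a1*, *Pax5* and 5 more summed to 14.8 and 16.8 CPM in WT and 60.6 and 26.1 in cKO, with cKO 1 the highest. Of the 9, 6 were higher in both cKO libraries than in both WT libraries, some of them genes that did not pass the filter. Of the 4 tested, 3 were higher in this way, beside 24.8% of all genes tested. *Pax5* was called higher (5, 4, 53 and 15 counts, adjusted p = 0.0407), and passed the filter through the cKO libraries only. Its log2 fold change was 1.93 without cKO 1 and 3.59 without cKO 2. The part of these markers in the level of *Tnfrsf13b* was not tested. *Tnfrsf26* had 64.7 and 64.5 CPM in WT and 51.6 and 54.0 in cKO (log2 fold change -0.29, adjusted p = 0.207). *Tnfrsf22* and *Tnfrsf23*, mouse decoy receptors for TRAIL that lie beside it on chromosome 7, share 27.4% and 18.0% of their 50-base words with other genes, so their counts are uncertain, and both had overlapping genotypes. *Tnfrsf12a*, the receptor of TWEAK, had 18, 25, 13 and 9 counts in the order WT 1, WT 2, cKO 1 and cKO 2. Both cKO libraries lay below both WT libraries in CPM. Its log2 fold change of -0.86 was the largest in size in the family but did not pass (adjusted p = 0.366). That rank rests on WT 2, without which the log2 fold change was -0.32. *Tnfrsf13c* had 9 to 13 counts in each library and was not called.

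Ligands and receptors that bind each other were then paired. Of 24 pairs, 9 had both partners tested, 8 only the receptor, 5 only the ligand and 2 neither. In 3 pairs 1 partner was called and in 0 pairs both were. In each of these 3 the partner was at or near the floor. *Tnfsf4*, the ligand of OX40, had 5, 1, 2 and 2 counts in the order WT 1, WT 2, cKO 1 and cKO 2. *Tnfsf18*, the ligand of GITR, had 1, 0, 1 and 0 counts, and *Cd40*, the receptor of CD40 ligand, had 0, 1, 4 and 1. The partners of the called genes, which are known from antigen-presenting cells, were thus hardly measured in these libraries. *Cd70*, the ligand of CD27, had 0, 0, 1 and 0 counts and *Ltbr*, the receptor of lymphotoxin beta, had 1, 3, 4 and 2, so that the most abundant receptor and the most abundant ligand also lacked a measured partner. In the 9 pairs with both partners tested, no partner was called. *Tnfsf14* and *Tnfrsf14* had log2 fold changes of 0.82 and -0.29, *Tnfsf8* and *Tnfrsf8* of -0.31 and 0.28, and *Tnf* stood at -0.27 beside *Tnfrsf1a* at 0.19 and *Tnfrsf1b* at 0.39. Values lay on the same side of 0 for *Tnfsf10* and *Tnfrsf10b* at 0.41 and 0.84, for *Tnfsf9* and *Tnfrsf9* at 0.28 and 0.15, and for *Lta* at 0.29 beside the same pair of TNF receptors. *Fasl* was at 0.74 while *Fas* was at 0.00.

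Downstream of these receptors, a list of 20 adaptors and signalling genes was read from the same test, and all 20 were tested. *Traf1* and *Tnfaip3* were called higher and *Traf5* lower, and 17 were not called. The background over all genes tested is 2.35% higher and 1.95% lower. TRAF1 is an adaptor bound by CD137 and TNFR2 complexes, and *Traf1* had 88.9 and 95.4 CPM in WT and 132.6 and 152.0 in cKO. Its log2 fold change was 0.63 ± 0.11 (SE) with an adjusted p = 0.0184, and the adjusted p was 0.0800 without WT 1 and 0.129 without WT 2. *Tnfaip3* encodes A20, a feedback inhibitor of NF-kappaB, and had 91.2 and 84.5 CPM in WT and 135.3 and 134.6 in cKO. Its log2 fold change was 0.62 ± 0.10 (SE) with an adjusted p = 0.0134, and the call was lost without WT 2 (adjusted p = 0.210). *Traf5*, an adaptor of CD27 and OX40, had 68.8 and 61.8 CPM in WT and 43.8 and 41.0 in cKO. It had a log2 fold change of -0.63 ± 0.12 (SE) with an adjusted p = 0.0267, which was 0.0609 in DESeq2, 0.190 without WT 1 and 0.142 without WT 2. *Traf2* and *Cflar*, the caspase-8 inhibitor c-FLIP, were next at log2 fold changes of 0.30 (adjusted p = 0.244) and 0.19 (adjusted p = 0.323). *Traf2* had 63.9 and 55.3 CPM in WT and 77.9 and 69.3 in cKO, and *Cflar* 229.6 and 224.5 in WT and 268.1 and 250.2 in cKO. Neither overlapped between genotypes, while 10 of the 20 listed genes and 49.7% of all tested genes did. *Rnf31*, *Rbck1* and *Sharpin*, the genes of the linear ubiquitin chain complex, had log2 fold changes of -0.06, -0.05 and -0.07. Of the list, 11 genes had values above 0 and 9 below, with a median of 0.03.

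**Figure D3:**
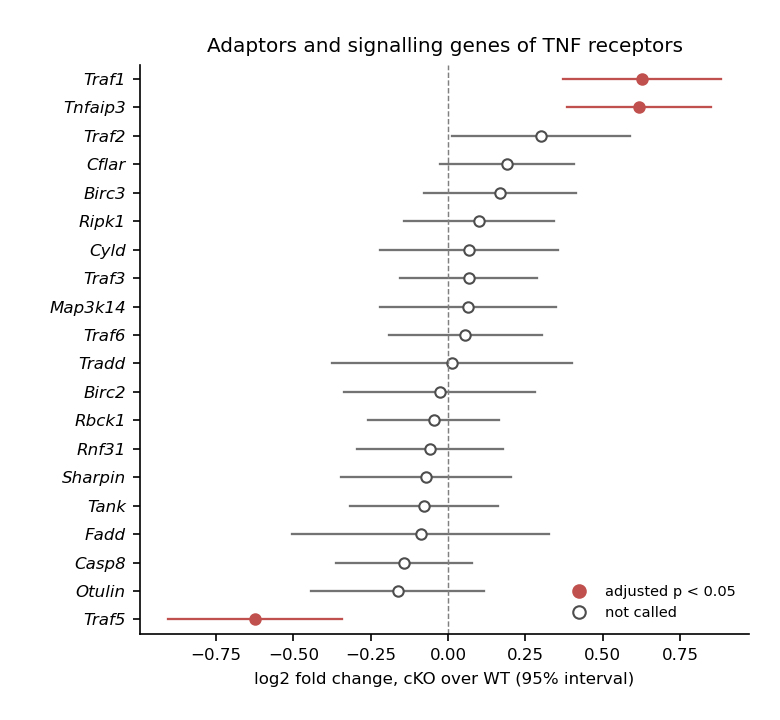
The log2 fold change of cKO over WT for 20 adaptor and signalling genes of TNF receptors with 95% intervals, ordered by value, filled red where the adjusted p was under 0.05. *Traf1* and *Tnfaip3* at the top and *Traf5* at the bottom stand apart from the other 17, which lie between -0.16 and 0.30.

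Markers of other cells moved with the same labels and are given beside these calls. The Treg list (*Foxp3*, *Il2ra*, *Ctla4*, *Ikzf2*, *Ikzf4*, *Nrp1*, *Gpr83*) summed to 490.7 and 417.7 CPM in WT and 863.2 and 1080.0 in cKO. All 7 had log2 fold changes above 0, and *Foxp3*, *Ctla4* and *Nrp1* were called higher, *Foxp3* with a log2 fold change of 1.86 from 926, 538, 2127 and 2573 counts. *Ctla4* had a log2 fold change of 0.58, and of 0.44 without WT 2. *Ikzf2* overlapped between genotypes, and its log2 fold change of 0.60 became -0.015 without cKO 2. *Tnfrsf4*, *Tnfrsf18*, *Tnfrsf1b* and *Tnfrsf9*, which Treg cells are known to carry, had log2 fold changes of 0.75, 0.62, 0.39 and 0.15. Per 100 counts of *Foxp3* there were 26.6 and 24.7 of *Tnfrsf4* in WT and 13.5 and 10.9 in cKO, and 41.6 and 54.5 of *Tnfrsf18* in WT and 24.7 and 16.6 in cKO. *Ctla4*, by the same measure, went from 53.5 and 50.9 to 25.7 and 18.6. *Cd40lg*, which is not on the Treg list, went from 60.6 and 67.5 to 32.6 and 21.5. *Foxp3*, the divisor, was itself higher in cKO, so any gene that rose less than *Foxp3* fell on this measure. The measure does not give a level per Treg cell. Myeloid markers summed to 37.8 and 45.3 CPM in WT and 113.6 and 68.4 in cKO. Of the 10 tested, 4 were called higher, beside 2.35% of all genes tested. Among these, *S100a9* (0, 1, 51 and 24 counts) and *Ltf* (0, 1, 36 and 29 counts) passed the filter through the cKO libraries only. The log2 fold change was above 0 for 8 of the 10 and below 0 for 2, *Itgam* at -0.85 and *Cd68* at -0.29. The activated or memory list summed to 447.7, 460.7, 412.9 and 441.3 CPM. *Cd69* was called higher from 889, 565, 1406 and 877 counts (log2 fold change 0.79, adjusted p = 0.0292). Its log2 fold change was 0.50 without cKO 1 and 1.03 without cKO 2. The other 4 tested members were not called. Of those, *Mki67*, a gene of dividing cells, was lower in both cKO libraries at 162.4 and 197.6 CPM in WT and 35.3 and 98.2 in cKO. Its log2 fold change was -1.44 (adjusted p = 0.0602), and was -0.87 without cKO 1 and -2.34 without cKO 2. *Ccr6*, *Cxcr3* and *Cd44* had log2 fold changes of -0.40, -0.25 and 0.00. Dendritic markers summed to 5.35 and 6.50 CPM in WT and 4.19 and 2.98 in cKO and NK markers to between 7.19 CPM in WT 1 and 1.49 in cKO 2, both sums lower in each cKO library than in either WT library, with none of their 3 tested genes called. The CD8 pair *Cd8a* and *Cd8b1* summed to 47.7 and 58.5 CPM in WT and 34.3 and 26.8 in cKO. *Cd8b1* was called lower (log2 fold change -0.91, adjusted p = 0.0201, from -1.06 to -0.76 with single libraries left out). *Cd8a* overlapped between genotypes (log2 fold change -0.07). The part of these markers in the calls of *Tnfrsf4*, *Tnfrsf18* and *Cd40lg* was not tested.

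**Figure D4:**
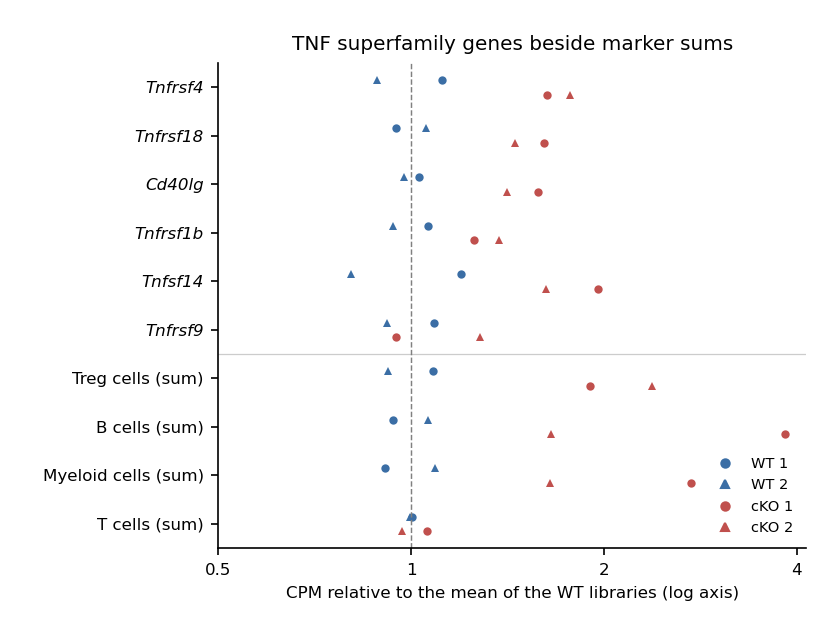
Levels of 6 TNF superfamily genes and the summed levels of 4 marker lists in each library, relative to the mean of the WT libraries on a log axis. Circles are replicate 1 and triangles replicate 2, WT in blue and cKO in red. The cKO symbols of *Tnfrsf4*, *Tnfrsf18* and *Cd40lg* lie to the right of WT as do those of the Treg, B-cell and myeloid sums, whereas *Tnfrsf9* and the T-cell sum overlap.

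Of the related genes outside the naming rule, *Relt*, a further receptor of the superfamily, had 60.9 and 55.6 CPM in WT and 54.7 and 52.3 in cKO (adjusted p = 0.627). *Eda*, *Edar*, *Eda2r*, *Ngfr* and *Tnfsfm13* had 0 counts in every library, save 1 count of *Ngfr* in WT 1.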

How the data were processed

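Per the processing notes and the study's methods, the authors aligned reads to mm10 (GRCm38) with HISAT2 2.1.0 and deposited raw HTSeq counts per gene symbol, 1 table per library. The notes name HTSeq 0.11.1. The methods give another release. The annotation and strand setting of the counting are not given in the sources used here. HTSeq summary lines were kept out, and 59.4% to 64.5% of uniquely aligned reads were given to no counted feature.

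Counts were analysed in R 4.3.3 with edgeR 4.0.16 (filterByExpr, TMM, quasi-likelihood F test on genotype, two-sided, Benjamini-Hochberg adjustment over all 12403 genes tested, called at an adjusted p under 0.05). CPM use TMM-scaled library sizes. Intervals at 95% cover counting error and the spread between libraries, and without molecular identifiers a read is not a separate molecule. Replicates were not the same library deposited again, as their counts differed beyond sampling noise (chi-square over degrees of freedom 3.00 in WT, 7.07 in cKO). DESeq2 1.42.0, an edgeR likelihood ratio test, RLE factors, library totals, other filters, a replicate block and leaving out each library were alternatives. The procedure was tested on simulated data. Gene positions and exonic lengths came from GENCODE M21, promoters from RefSeq GRCm38.p6, and plots from Python 3.11.15 with matplotlib 3.10.9.

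The members, the role, pair, signalling and marker lists and the tests were chosen with earlier results of these data known. Values in every library are given for tested costimulatory receptors and ligands and for any other member called, and for signalling genes called plus the most changed up to 5 in all. Values of further members are given where a comparison needed them. A B-cell marker of the list is not reported here.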

Additional observations from a re-analysis of the deposited data

How the results depend on the processing

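Of 352 fold changes of single genes under the alternatives, 319 kept their direction and side of the threshold, 11 lost a call, 11 gained one and 11 turned. The 3 calls of higher transcripts became 5 with the replicate block and 0 at an adjusted p under 0.01, and ranged from 0 to 6 when single libraries were left out. Without WT 2 none was called, without WT 1 2 were (*Tnfrsf4* of the 3, and *Tnfsf14*), and without cKO 1 and without cKO 2 6 were, each time with the 3 among them. The likelihood ratio test and the fit without a filter gave 4, with *Tnfsf14* added, and DESeq2, RLE factors, library totals and the filter at 1 CPM gave 3. Calls of lower transcripts were 0 under every alternative run. The median of the costimulatory receptors, 0.22, ranged from 0.056 to 0.39 without single libraries. With single libraries left out, log2 fold changes near 0 turned, with ranges of -0.049 to 0.13 for *Cd27*, -0.051 to 0.066 for *Fas*, -0.086 to 0.0018 for *Ltb*, -0.090 to 0.85 for *Tnfrsf13c*, -0.028 to 0.17 for *Tnfrsf22*, -0.23 to 0.74 for *Tnfrsf23* and -0.089 to 0.35 for *Tnfrsf9*, and *Fas* was -0.0040 without the filter. What causes these shifts was not tested. Same-numbered libraries are not stated to be paired and their deviations correlated at only 0.064 across genes. Under the block the calls over all genes went from 533 to 1165, without the filter to 1367, with the likelihood ratio test to 1096, and without WT 2, cKO 1 and cKO 2 to 180, 1491 and 1790. A fit without 1 library assumes that the lone library of that genotype varies like the other 2. Genes under about 2 CPM did not pass the filter, and with no filter 40 of the 42 genes were fitted.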
